A study of Homo sapiens with 8 samples.

Results

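Amino acids enter and leave cells through membrane carriers, and 10 genes that encode such carriers, or the subunit that brings them to the cell surface, are described here in cells whose mitochondria were poisoned. The 10 genes were chosen by symbol, with earlier results of these data known, out of 61806 genes in the deposited table. They are SLC3A2, SLC7A5, SLC7A11, SLC7A6, SLC7A1, SLC1A5, SLC1A4, SLC38A1, SLC38A2 and SLC6A9. All 10 passed the filter on low counts, which required at least 10 counts in at least 4 libraries and which 14893 genes passed.

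mRNA was sequenced from wild-type N/TERT-1 cells, a line of human epidermal keratinocytes immortalized with telomerase, in 8 libraries. In 4 of them the cells had received ethanol, the solvent, and in the other 4 oligomycin and antimycin A (O/A), which block the mitochondrial ATP synthase and cytochrome c reductase. Per the study's text, O/A was given for 4 hours and the libraries of each condition came from 4 independent experiments with 1 cell line. The doses are stated for other experiments of the study, as 10 µM for oligomycin and 4 µM for antimycin A, and not again for the sequencing. The study sequenced these cells to ask whether genes of cholesterol synthesis and uptake respond to O/A.

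The total count per library ran from 17210404 to 20999927 with ethanol and from 17689760 to 19263046 with O/A. All 7 markers of basal keratinocytes were detected, with a summed level of 2894.28 to 3151.10 FPKM (reads counted per length of exon and per library total) in ethanol and 2574.46 to 2727.48 in O/A. Among them KRT5 fell, with a log2 fold change of -0.30, and DSG3 rose by 0.99. The 7 fibroblast markers summed to 2.42 to 2.95 FPKM in ethanol and 2.46 to 2.70 in O/A, nearly all of it from COL1A1, and the 3 endothelial markers to at most 0.06. The 5 melanocyte markers summed to 1.35 to 1.81 FPKM in ethanol and 1.25 to 1.71 in O/A, with MLANA and TYR at 0 counts in every library. The 4 leukocyte markers summed to 0.40 to 0.59 FPKM in ethanol and 0.65 to 0.88 in O/A, nearly all of it from CD68, with CD207 at 0. Of the 5 markers of differentiated keratinocytes, KRT1 and LORICRIN were at 0 counts everywhere, KRT10 rose by a log2 fold change of 0.47, IVL fell by 0.31 on the log2 scale, and the list summed to 19.47 to 21.31 FPKM in ethanol and 20.74 to 22.04 in O/A. The part of these shifts in the results that follow was not tested.

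Amino acid carriers work in a division of labour. Sodium-coupled carriers such as SLC38A1 and SLC38A2 load the cell with small neutral amino acids, and exchangers such as SLC7A5, SLC1A5 and SLC7A11 then trade one amino acid for another across the membrane. Several light chains of the SLC7 family, SLC7A5, SLC7A6 and SLC7A11 among them, need a disulfide-linked partner, SLC3A2 (the CD98 heavy chain), to reach the cell surface. When amino acids run short or mitochondria fail, phosphorylation of the initiation factor eIF2alpha raises translation of the transcription factor ATF4, which binds composite C/EBP-ATF elements in carrier genes and in genes of amino acid synthesis.

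O/A changed the mRNA of nearly all of these genes, mostly upwards. Of the 10, 8 rose (SLC7A11, SLC6A9, SLC1A4, SLC38A2, SLC7A1, SLC3A2, SLC38A1 and SLC1A5), SLC7A6 fell, and SLC7A5 had a log2 fold change of 0.16, below the threshold. A gene was called where edgeR's quasi-likelihood test gave an adjusted p (Benjamini-Hochberg, over all genes tested) of at most 0.05 and the absolute log2 fold change, O/A over ethanol, was above 0.25. By the same rule 15.8% of all genes tested rose and 18.9% fell, or 34.7% in all. The adjusted p alone was at most 0.05 for 10 of the 10 genes, SLC7A5 included, and for 53.7% of all genes tested. A rise by a log2 fold change above 1 was reached by 6 of the 10 genes and by 2.56% of all genes tested (5.35% in either direction). Of the 6, SLC3A2 lay at this cutoff, at 1.003 with a standard error of 0.025. The median log2 fold change was 1.15 over the 10 genes and -0.00040 over all genes tested, for which the 5th and 95th percentiles were -0.76 and 0.72. The 4 O/A libraries lay above the 4 ethanol libraries without overlap for 9 of the 10 genes and below them for SLC7A6. Of all genes tested, 22.8% lay wholly above and 24.8% wholly below (47.6% without overlap in either direction). Overlap was judged here on counts scaled by library total and TMM. Adjusted p-values of the 9 called genes ran from 2.18e-45 for SLC38A2 to 1.19e-17 for SLC7A6 in edgeR's quasi-likelihood test. Since the RNA comes from whole cultures, fewer cells of a kind and less RNA per cell cannot be told apart.

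**Figure D1:**
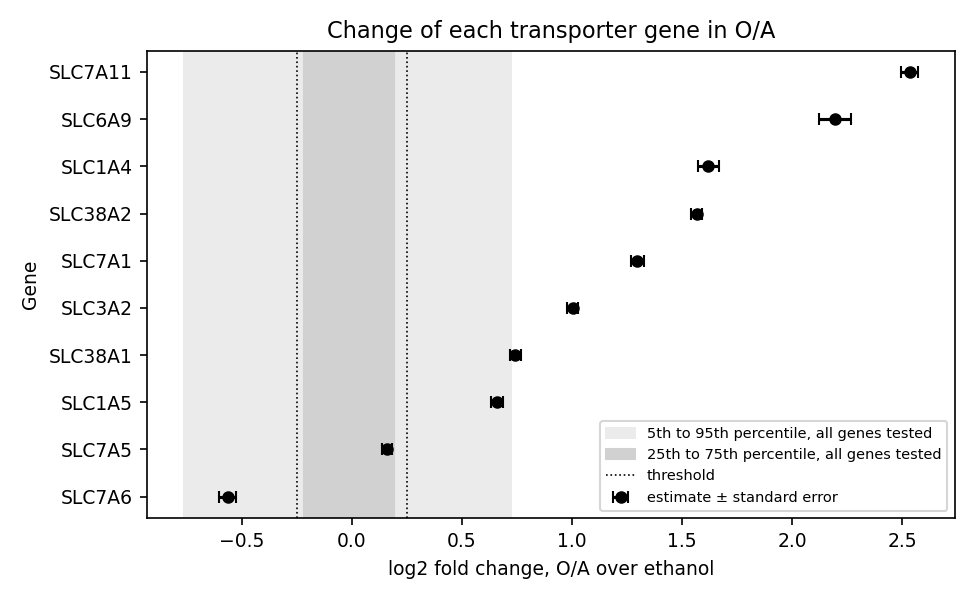
log2 fold change of each of the 10 genes in O/A over ethanol (points, with the standard error of edgeR's fit as bars), with the thresholds of -0.25 and 0.25 as dotted lines. The grey bands span the 5th to 95th and the 25th to 75th percentile of the 14893 genes tested, and 7 genes lie to the right of the wider band, from SLC38A1 at 0.74 to SLC7A11 at 2.53.

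Promoter sequence was read for the genes because it is not one of the values measured here. RefSeq windows on GRCh38.p14, from 250 bases before to 50 after an annotated start, were found for 9 of the 10 genes, all but SLC7A11, in 15 windows. The letters TGATGNAA, searched on both strands, occurred in 5 of these 15 windows, 1 each for SLC1A4, SLC3A2, SLC38A1, SLC7A1 and SLC1A5, against 3.62% of 35116 windows of all genes. The stretches that hold them are given 5′ to 3′ on the strand of the gene, with the 8 matching bases in capitals.
SLC1A4: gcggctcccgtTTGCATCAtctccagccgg
SLC3A2: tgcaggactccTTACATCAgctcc
SLC38A1: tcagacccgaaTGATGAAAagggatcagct
SLC7A1: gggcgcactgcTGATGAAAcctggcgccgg
SLC1A5: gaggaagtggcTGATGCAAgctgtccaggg

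In SLC1A4 and SLC3A2 the element reads in the opposite direction to the gene, and in the other 3 genes in the same direction. The stretch of SLC1A4 lies at chr2:64989381-64989410 on the plus strand, where the annotation has an untranslated exon, and its element spans positions -7 to 1 from the second of 2 annotated starts. That of SLC3A2 lies at chr11:62881725-62881748 on the plus strand, and its element spans positions 38 to 45 from a start, within a coding exon of some transcripts. For SLC38A1 the stretch is chr12:46266502-46266531 on the minus strand, with the element at -4 to 4 from the first of 2 starts and in an intron of other transcripts. The stretch of SLC7A1 lies at chr13:29595663-29595692 on the minus strand, with the element at positions 8 to 15 from the start, in an untranslated exon. In SLC1A5 the stretch, chr19:46784893-46784922 on the minus strand, has its element at positions -97 to -90 from the third of 3 annotated starts, in an untranslated exon of other transcripts. The windows of SLC7A5, SLC7A6, SLC38A2 and SLC6A9 did not hold these letters, which says only that they are not within these 300 bases. A match to 8 letters is a description of the sequence and does not show that a factor binds there.

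An antioxidant response element and an E-box were searched in the same windows, on both strands. The antioxidant element, TGACNNNGC, occurred in 5 of the 15 windows (SLC1A5, SLC3A2, SLC7A1, SLC7A5 and SLC7A6) against 13.3% of all windows. The E-box CACGTG, to which MYC and related factors bind, occurred in 2 of them, in SLC7A5 and SLC1A5, against 7.26%. SLC7A5 and SLC7A6, the genes not called higher, had an antioxidant element in their window and no C/EBP-ATF element. The antioxidant element was also in windows of SLC1A5, SLC3A2 and SLC7A1, which rose. The windows of SLC38A2 and SLC6A9, which rose too, held none of the 3 elements. Whether any of these elements bears on the changes was not tested.

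SLC3A2, the heavy chain, rose 2.00-fold. Its level was 65.13, 62.12, 63.77 and 62.23 FPKM in the ethanol libraries and 123.88, 122.10, 124.82 and 120.84 FPKM in the O/A libraries. Every O/A library lay far above every ethanol library, and within a condition the libraries differed by little. The log2 fold change was 1.00 (standard error 0.025). The gene (ENSG00000168003) lies on chromosome 11 from 62856004 to 62888880, on the plus strand of GRCh38, and its C/EBP-ATF letters, printed above, read TTACATCA.

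The light chains of SLC3A2 moved in different directions. SLC7A11 carries cystine into the cell in exchange for glutamate and so feeds glutathione synthesis. It stood at 5.60, 5.10, 4.84 and 5.76 FPKM in ethanol and at 29.81, 30.55, 30.29 and 29.23 FPKM in O/A. No other of the 10 genes rose as much, and the groups were far apart. Its log2 fold change was 2.53 (standard error 0.038, adjusted p = 1.08e-33 in edgeR's quasi-likelihood test), a fold of 5.79 and rank 42 of the 14893 genes tested. Behind this were 804 to 1166 counts in the ethanol libraries against 4998 to 5628 after O/A. SLC7A11 (ENSG00000151012) lies on the minus strand of chromosome 4 from 138164097 to 138242349.

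SLC7A5, which imports leucine and other large neutral amino acids in exchange for glutamine, had the highest FPKM of the 10 in ethanol and in O/A. In counts, which are not divided by exon length, SLC38A2 was higher in O/A, at 37773 to 40796 against 30824 to 33599. SLC7A5 was at 336.28, 327.78, 351.19 and 341.72 FPKM in ethanol and at 374.49, 362.87, 366.13 and 365.01 FPKM in O/A. The groups did not overlap, but the distance between them was small beside the level. The log2 fold change was 0.16, with a 95% interval of 0.11 to 0.21 and an adjusted p of 2.05e-07 in edgeR's quasi-likelihood test, so that a small difference was detected and the threshold of 0.25 was not reached. The gene (ENSG00000103257) lies on chromosome 16 from 87830023 to 87869507, on the minus strand, and had 27442 to 34187 counts per library over both conditions. Its pseudogenes SLC7A5P1 and SLC7A5P2 had 0 counts in every library.

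SLC7A6, which exchanges arginine and glutamine across the membrane, was the only one of the 10 to fall. It was at 10.50, 10.96, 10.20 and 11.05 FPKM in ethanol and at 7.12, 6.87, 6.81 and 7.20 FPKM in O/A. All O/A libraries were lower than all ethanol libraries. The log2 fold change was -0.56 (standard error 0.039), a fold of 0.676, on 1332 to 1760 counts with ethanol against 956 to 995 with O/A. SLC7A6 (ENSG00000103064) lies on the plus strand of chromosome 16 from 68264516 to 68301823 and overlaps SLC7A6OS on the opposite strand over 17321 bases. SLC7A6OS rose by a log2 fold change of 0.45 (adjusted p = 7.12e-11, same test), from 497 to 608 counts in ethanol to 682 to 782 in O/A. Whether the counting used strand is not given in the sources used here, so reads of this pair cannot be told apart where they overlap, and the value of SLC7A6 is uncertain to that extent.

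**Figure D2:**
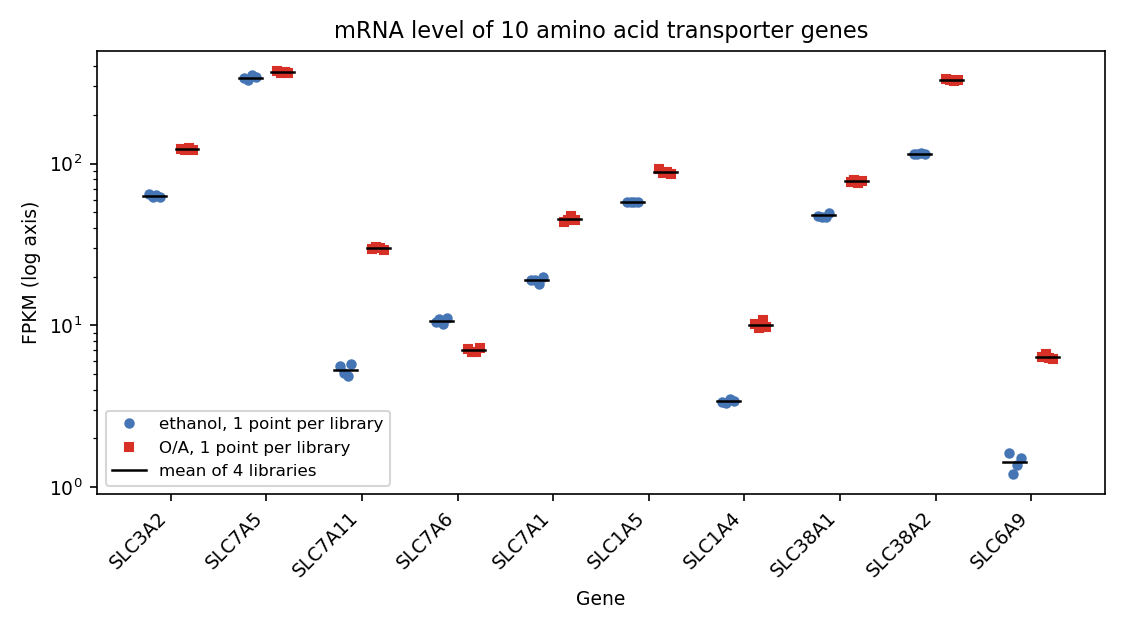
FPKM of each of the 10 genes on a log axis, with 1 point per library (circles for ethanol, squares for O/A) and a line at the mean of 4 libraries. The libraries of a condition lie close together, and the O/A squares are above the ethanol circles for every gene but SLC7A6, narrowly so for SLC7A5.

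SLC7A1, the main carrier of arginine and lysine, works without SLC3A2. It rose from 19.14, 19.01, 18.00 and 19.88 FPKM in ethanol to 43.75, 45.10, 47.59 and 44.77 FPKM in O/A. The lowest O/A library lay well above the highest ethanol library. The log2 fold change was 1.30 (standard error 0.031), a fold of 2.46, on 2382 to 3210 counts with ethanol against 5950 to 7048 with O/A. SLC7A1 (ENSG00000139514) lies on the minus strand of chromosome 13 from 29509414 to 29595688.

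The sodium-dependent exchangers of the SLC1 family both rose, the less abundant one more. SLC1A5 trades glutamine and other neutral amino acids and was at 58.04, 57.83, 58.21 and 57.57 FPKM in ethanol and at 92.21, 87.58, 88.20 and 86.35 FPKM in O/A. SLC1A4 takes up serine, alanine, cysteine and threonine and was at 3.35, 3.31, 3.52 and 3.41 FPKM in ethanol and at 10.24, 9.57, 10.83 and 9.81 FPKM in O/A. For neither gene did the groups overlap. The log2 fold change was 0.66 (standard error 0.027) for SLC1A5 and 1.62 (0.048) for SLC1A4, which are folds of 1.58 and 3.07. SLC1A5 (ENSG00000105281) lies on the minus strand of chromosome 19 from 46774883 to 46788594 and SLC1A4 (ENSG00000115902) on the plus strand of chromosome 2 from 64988477 to 65023865.

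SLC38A1 and SLC38A2 carry glutamine, alanine and other small neutral amino acids into the cell with sodium. SLC38A1 was at 47.61, 46.84, 47.03 and 49.74 FPKM in ethanol and at 77.17, 79.28, 75.68 and 78.08 FPKM in O/A. SLC38A2 was at 114.29, 114.33, 116.51 and 114.18 FPKM in ethanol and at 335.69, 328.99, 325.37 and 327.38 FPKM in O/A. Both pairs of groups were fully separated, and the distance was greater for SLC38A2. The log2 fold change was 0.74 (standard error 0.026) for SLC38A1 and 1.57 (0.024) for SLC38A2, or folds of 1.67 and 2.96. SLC38A2 rested on 13052 to 15607 counts with ethanol against 37773 to 40796 with O/A, and SLC38A1 on 8107 to 10460 against 13672 to 14939. The genes are neighbours on the minus strand of chromosome 12, SLC38A1 (ENSG00000111371) from 46183063 to 46270017 and SLC38A2 (ENSG00000134294) from 46358188 to 46372773, with 88170 bases and 0 listed genes between them.

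SLC6A9, a glycine carrier driven by sodium and chloride, was the least abundant of the 10 and rose second most. Its level was 1.62, 1.21, 1.38 and 1.51 FPKM in ethanol and 6.35, 6.64, 6.33 and 6.16 FPKM in O/A. The ethanol libraries were more scattered than for any other of the 10 genes, with a coefficient of variation of 12.3%, yet all lay far below the O/A libraries. On 112 to 166 counts with ethanol against 573 to 656 with O/A, the log2 fold change was 2.20 (standard error 0.072), a fold of 4.58. SLC6A9 (ENSG00000196517) lies on the minus strand of chromosome 1 from 43991500 to 44031467 and overlaps CCDC24 on the opposite strand over 5029 bases. CCDC24 held between 145 and 229 counts with ethanol and between 136 and 173 with O/A, with a log2 fold change of -0.11 (adjusted p = 0.347, same test), and here too reads of the overlap cannot be told apart.

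The make-up of this set of carrier mRNAs changed with the treatment. Summed over the 10 genes, the level was 663 ± 11.0 FPKM in ethanol and 1084 ± 11.4 in O/A (SD, n = 4 each), which ran from 648.49 to 674.65 and from 1074.8 to 1100.7. SLC7A5 made up 51.2% ± 0.656 of this sum in ethanol and 33.9% ± 0.181 in O/A. SLC38A2 went from 17.3% ± 0.217 to 30.4% ± 0.204, so that in O/A the SLC7A5 and SLC38A2 levels lay near each other, at 367 ± 5.09 and 329 ± 4.47 FPKM. SLC7A11 went from 0.803% ± 0.0662 to 2.76% ± 0.0597 and SLC3A2 from 9.55% ± 0.221 to 11.3% ± 0.136. The share of SLC38A1 was 7.21% ± 0.199 in ethanol and 7.15% ± 0.177 in O/A, a distance smaller than the spread between libraries. As a share of all counts, the 10 genes took 0.375% ± 0.00561 in ethanol and 0.654% ± 0.00555 in O/A.

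Ordered by FPKM, a scale per length of exon, the first 6 genes were the same in both conditions, namely SLC7A5, SLC38A2, SLC3A2, SLC1A5, SLC38A1 and SLC7A1. SLC7A6, SLC7A11, SLC1A4 and SLC6A9 followed in ethanol, and SLC7A11, SLC1A4, SLC7A6 and SLC6A9 in O/A. The libraries of neighbours in this order did not overlap in either condition. The closest were SLC7A6, at 6.81 to 7.20 FPKM in O/A, and SLC6A9, at 6.16 to 6.64.

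**Figure D3:**
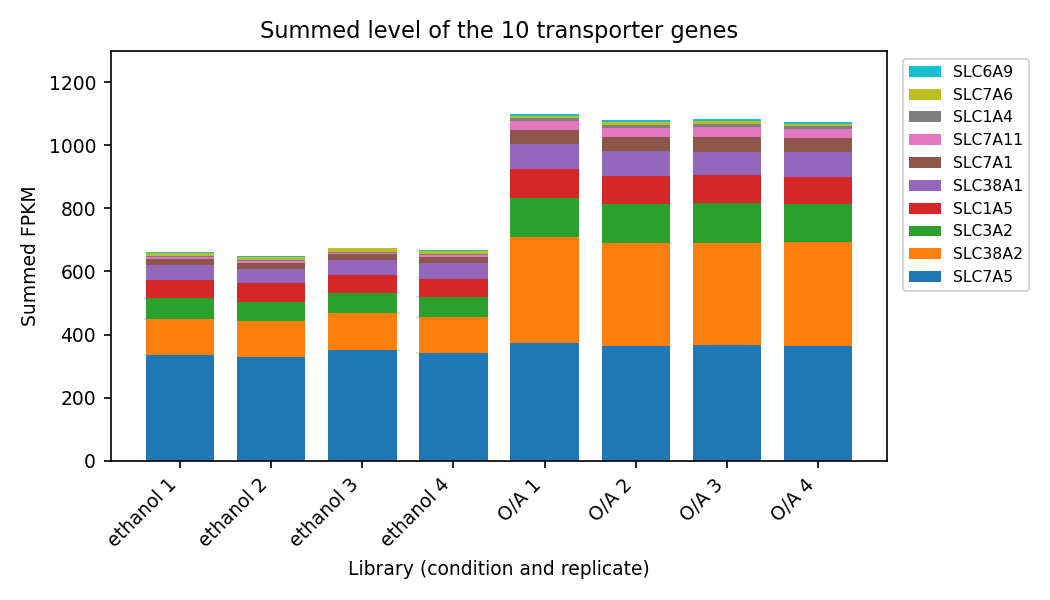
Summed FPKM of the 10 genes in each of the 8 libraries, stacked by gene. The sum is 648.49 to 674.65 in ethanol and 1074.8 to 1100.7 in O/A, and of the increase SLC38A2 makes up the largest part, while the SLC7A5 segment is the tallest in every library and runs from 327.78 to 374.49.

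Ratios taken within each library showed how unevenly partners and family members moved. SLC7A5 stood to SLC3A2 as 5.36 ± 0.168 in ethanol and 2.99 ± 0.0430 in O/A (FPKM ratio, SD, n = 4 each), a log2 difference of -0.84. Summed over 6 light chains that bind SLC3A2 (SLC7A5, SLC7A6, SLC7A7, SLC7A8, SLC7A10 and SLC7A11), the ratio was 5.65 ± 0.173 in ethanol and 3.31 ± 0.0429 in O/A, a log2 difference of -0.77. The heavy chain thus rose relative to the sum of its light chains at the level of mRNA. Among the light chains, SLC7A11 to SLC3A2 went from 0.0841 ± 0.00699 to 0.244 ± 0.00432, and SLC7A6 to SLC3A2 from 0.169 ± 0.00950 to 0.0570 ± 0.00211, log2 differences of 1.54 and -1.57. SLC38A2 to SLC38A1 went from 2.40 ± 0.0786 to 4.25 ± 0.0926, a log2 difference of 0.82. SLC1A4 to SLC1A5 went from 0.0587 ± 0.00147 to 0.114 ± 0.00601, a log2 difference of 0.96. For each of the 6 ratios the groups did not overlap. The two-sided exact permutation test gave p = 0.0286 for each (also 0.0286 after Benjamini-Hochberg adjustment over the 6), the smallest value that 4 against 4 libraries allow. Of all single genes tested, 47.6% were also without overlap on scaled counts. Each log2 difference follows from the changes of its genes, which were chosen with earlier results of these data known. Several ratios also share SLC3A2, so these p-values add no independent support.

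**Figure D4:**
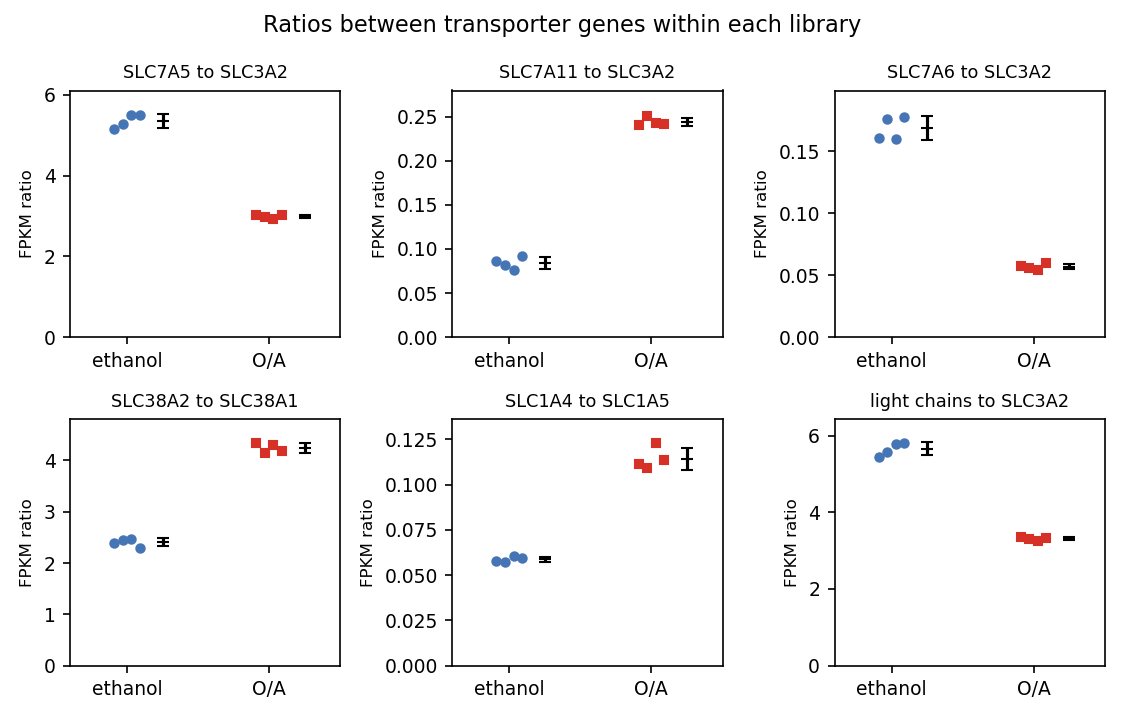
FPKM ratio within each library for 6 pairs of genes or sums, with 1 point per library (circles for ethanol, squares for O/A) and the mean with its SD beside them, on axes that start at 0. In each panel the 4 O/A libraries lie wholly on 1 side of the 4 ethanol libraries, lower for SLC7A5, SLC7A6 and the summed light chains and higher for the other 3.

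Other carriers of the plasma membrane were little expressed and moved less. The 10 genes had been chosen with earlier results of these data known, which enters into this contrast. Of 29 further genes listed as such carriers, 16 were below the filter and 13 were tested, and summed they reached 26.3 ± 0.537 FPKM in ethanol and 27.5 ± 0.744 in O/A. The 10 genes therefore held 96.2% of the summed FPKM of all 39 in ethanol and 97.5% in O/A. Among the 13 tested, 3 rose, 1 fell and 9 were not called, with a median log2 fold change of 0.02, and all were within the 5th to 95th percentile of all genes but SLC6A14. The same rule called 34.7% of all genes tested, 15.8% higher and 18.9% lower, so this share was near that of all genes. SLC6A6, the taurine carrier, went from 3.39 to 4.39 FPKM (log2 fold change 0.42, adjusted p = 1.92e-09 in edgeR's quasi-likelihood test) and SLC36A4 from 2.26 to 2.92 FPKM (0.42, adjusted p = 1.64e-08). SLC6A14, with 8 to 12 counts with ethanol against 10 to 22 with O/A, had a log2 fold change of 0.78 (standard error 0.31, adjusted p = 0.0310), and its groups overlapped. SLC43A2, a carrier of large neutral amino acids, went from 0.960 to 0.780 FPKM (-0.26, adjusted p = 0.0156). Its FPKM ranges lay close without overlap, at 0.83 to 1.04 in ethanol and 0.71 to 0.81 in O/A. On counts scaled by library total and TMM its groups overlapped narrowly. Without ethanol replicate 3, SLC6A14 had an adjusted p of 0.0730 and SLC43A2 a log2 fold change of -0.23, and neither was called. The most abundant gene that was not called was SLC38A5, at 9.48 FPKM in ethanol and 8.74 in O/A (-0.07, adjusted p = 0.220).

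Of 8 amino acid carriers of the lysosome, 7 were tested, 3 rose and 4 were not called, with a median log2 fold change of 0.10. Of all genes tested, 15.8% were called higher. CTNS, which exports cystine, went from 2.93 to 4.17 FPKM (log2 fold change 0.55, adjusted p = 2.38e-09 in edgeR's quasi-likelihood test). SLC66A1, an exporter of lysine and arginine, had a log2 fold change of 0.43 and SLC15A4, which carries histidine and small peptides, of 0.32. MFSD12, which imports cysteine and was the most abundant lysosomal gene not called, was at 7.79 FPKM in ethanol and 7.84 in O/A (0.06, adjusted p = 0.353).

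Among 15 regulators and partners of the carriers, 8 rose, 2 fell and 5 were not called, with a median log2 fold change of 0.61. Of all genes tested, 15.8% were called higher and 18.9% lower. All 15 were tested, and 7 of the 10 transcription regulators were among those that rose. ATF4 went from 92.8 ± 2.44 to 262 ± 4.00 FPKM (SD, n = 4 each), a log2 fold change of 1.54. Partners of ATF4 on C/EBP-ATF elements also rose, with log2 fold changes of 3.90 for DDIT3, 2.11 for CEBPB, 1.98 for ATF3 and 1.82 for CEBPG. NFE2L2 (NRF2), which drives genes with antioxidant elements, rose by 0.89 and its competitor BACH1 by 0.72, while KEAP1, the adaptor that marks NRF2 for degradation, fell by 0.35 on the log2 scale. MYC, known to drive SLC7A5 and SLC1A5 in dividing cells, fell by 0.67 on the log2 scale, from 42.8 ± 0.669 to 26.1 ± 0.918 FPKM. Whether any of these regulators acts on the carriers was not tested.

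Of the 5 partner proteins and ubiquitin pathway genes, NEDD4L was the one that rose, from 4.13 to 6.14 FPKM, a log2 fold change of 0.61. NEDD4L is a ubiquitin ligase that removes membrane proteins, SLC38A2 among them, from the cell surface. CD44 and OTUB1, which stabilize the SLC7A11 protein, had log2 fold changes of -0.02 (adjusted p = 0.460 in edgeR's quasi-likelihood test) and -0.01 (adjusted p = 0.849). The integrin ITGB1, which binds SLC3A2, had 0.04 (adjusted p = 0.136), and RNF5, a ligase for SLC1A5 and SLC38A2, had 0.13 (adjusted p = 0.0986).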

How the data were processed

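mRNA was isolated with oligo(dT) beads and sequenced as paired-end reads in 8 libraries. Per the submitters' processing notes, the authors used HISAT2 2.0.1 for alignment to GRCh38.p13 and HTSeq 0.6.1 for counts per Ensembl gene, and the deposited counts are not normalized. The Ensembl release and the strand setting of the counting are not given in the sources used here. The FPKM values were made by the authors, and each deposited value was within 0.005 of the count divided by exonic size and library total. FPKM is thus a share of a library, and a gene's FPKM moves when others take more or less of it. The authors' DESeq2 comparison (mean normalized counts, fold changes, their standard errors, test statistics and p-values) was not used. Of the columns of single libraries, 0 were without a labelled sample.

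Counts were fitted with edgeR 4.0.16 in R 4.3.3 (TMM scaling, robust quasi-likelihood test, no block), with Benjamini-Hochberg adjustment over 14893 genes. Standard errors were derived from the log2 fold change and its F statistic. Ratios of FPKM were compared by exact permutation over libraries. On simulated data 200 of 14893 genes had been changed for this comparison. There edgeR recovered 186 with 1 false call and DESeq2 1.42.0 recovered 179 with 0. Far fewer genes were changed there than the 5165 called here, and each by well over the threshold of 0.25. The simulation therefore does not show how scaling, or calls near the threshold, behave in these data. Over 11168 genes, pairs of libraries of a condition had a chi-square of 1.783 to 5.945 per degree of freedom, more than sampling noise gives, so none was a copy of another, and pairs across conditions had 54.94 to 66.43. The depth leaves SLC6A9, with 112 counts in its lowest library, the least precise of the 10.

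The 10 genes and the lists were chosen with earlier results of these data known. Named are the 10 genes, every called gene of the other lists and the most abundant one not called, overlapping genes that hold reads, and further regulators and markers named for their role after their values were seen. Some genes are not reported here. Coordinates are those of the deposited table and equal GENCODE 44 for all 10. Alternatives were DESeq2, median-ratio and upper-quartile scaling, no filter, limma 3.58.1 on log2(FPKM + 0.1) and log2(FPKM + 1), other fold change thresholds, a block for replicate number and the removal of each library in turn. For ratios they were counts and FPKM + 1.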

Additional observations from a re-analysis of the deposited data

How the results depend on the processing

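No call of the 10 genes changed under any of the 15 alternatives run for each at the same thresholds. SLC7A5 stayed between 0.11 and 0.18 on the log2 scale, SLC7A6 between -0.60 and -0.55 and SLC7A11 between 2.29 and 2.58, and SLC6A9 was lowest, at 1.60, on log2(FPKM + 1). Of the 10 genes, 9 were called, 6 with an absolute log2 fold change above 1 and 10 with no fold change threshold. SLC3A2 was among these 6 at 1.003 and lay between 0.95 and 1.02 over the alternatives, so the count of 6 depends on the processing. Of the other plasma membrane carriers, 4 were called, but 0 with a log2 fold change above 1, 2 by limma on log2(FPKM + 0.1), 2 on log2(FPKM + 1), and 2 to 4 with each library left out, 2 without ethanol replicate 3 and also 2 without ethanol replicate 4. The SLC6A14 call was lost with DESeq2 (adjusted p = 0.0811) and in 8 of 15 alternatives, and that of SLC43A2 in 5 of 15. SLC43A2 was at -0.23 without ethanol replicate 3 and at -0.22 without ethanol replicate 4, as well as without replicate 3 of O/A, and SLC6A14 had an adjusted p of 0.0730, 0.0769, 0.0935 and 0.109 without ethanol replicate 3, ethanol replicate 4, O/A replicate 1 and O/A replicate 2 (edgeR's quasi-likelihood test). SLC15A4 was at 0.23 on log2(FPKM + 1). Above a log2 fold change of 1, the 3 calls of lysosomal carriers became 0 and the 10 of regulators and partners became 5, by construction. No pairing by the shared replicate numbers was seen, as same-numbered libraries correlated at -0.0226 to 0.0675 over genes and 2 of 4 matched their own number best. Correlations this small cannot show whether libraries that share a number came from the same experiment. With the replicate block 5160 genes were called, 5117 of them among the 5165 called without it, and all calls of the 10 genes were kept. With the replicate block the 6 ratios had log2 differences of -0.84, 1.54, -1.57, 0.82, 0.96 and -0.77 and each an exact p of 0.125, the smallest that 4 pairs allow, which says nothing about stability. The median log2 fold change of all genes lay between -0.04 and 0.02 under every scaling and test run. Without the filter SLC43A1, which it removes, was called higher (log2 fold change 2.16, adjusted p = 0.00247 in edgeR's quasi-likelihood test) on 1 to 3 counts with ethanol against 4 to 11 with O/A, while SLC6A14 was not (adjusted p = 0.0688).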
